A study of Mus musculus with 6 samples.

Results

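Integrins are cell surface receptors made of an alpha and a beta chain, and the 10 genes described here encode chains through which endothelial cells (ECs) hold on to the extracellular matrix. They were listed by name, by a rule that uses no measured value but was set with earlier results of these data known, and all 10 were found among the 24421 genes of the count table. They comprise 6 alpha chains, Itga1, Itga2, Itga5, Itga6, Itga9 and Itgav, and 4 beta chains, Itgb1, Itgb3, Itgb4 and Itgb5. The pairing of the chains sets which ligand is bound. Itga1 and Itga2 pair with Itgb1 as collagen receptors, Itga6 pairs with Itgb1 or Itgb4 as a laminin receptor, and Itga5 pairs with Itgb1 as the classical fibronectin receptor. Itgav pairs with Itgb3 or Itgb5, among others, and binds RGD-containing proteins such as vitronectin. Itga9 pairs with Itgb1 and binds tenascin C, osteopontin, EMILIN1 and SVEP1. In the liver, the sinusoidal endothelium has only a sparse basement membrane, whereas the larger vessels rest on a laminin-containing one.

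RNA-seq was performed on liver ECs of wild-type C57BL/6J mice, and the question was how the transcriptome of these cells differs with age. The young group comprised 3 samples from 10-week-old mice, and the aged group comprised 3 samples from mice of 127, 131 and 136 weeks. Per the methods the mice were female and animals with visible tumors or an enlarged liver or spleen were left out, so the aged group holds only animals that passed this selection. No transgene or treatment is named for either group. ECs were sorted as CD31+CD45- cells, so the samples hold sinusoidal and large-vessel ECs together. The methods call the samples of a group independent, and the labels do not say whether a sample came from 1 mouse or several. Within each group, the counts of samples were compared in pairs by a chi-square statistic per degree of freedom. It was 20.2 for young replicates 1 and 2 and 146 to 186 for the other pairs. Young replicates 1 and 2 were thus more alike than any other such pair, and why was not tested.

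Library totals were between 23001556 and 31651817 counts. Itga2 had the lowest counts of the 10 genes, 12 to 157 per sample, so counting error is relevant to it. Levels are given as CPM, the counts of a gene relative to the library total after TMM scaling between libraries, or, where genes are compared with each other, as FPKM, which also corrects for transcript length. The endothelial marker Pecam1, which encodes CD31, was measured at 1366 to 1635 CPM in all samples, and Ptprc, which encodes CD45, at 1.17 to 25.6 CPM. Young replicate 3 and the 127-week sample stood apart from the other libraries. In these libraries 1.29% and 0.96% of all counts fell on Lars2 and Rn45s, against 4.68% to 5.53% in the other 4, and values within each of these library sets are given where they bear on a result.

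In young ECs, Itgb1, the beta chain shared by most matrix receptors, was measured at 273 ± 11.9 FPKM (SD, n = 3), the highest level of the 10 genes. Itga1 followed with 83.7 ± 19.4 FPKM, Itga9 with 69.0 ± 11.2 FPKM and Itga5 with 63.0 ± 5.84 FPKM. The ranges of Itga1 and Itga9 overlapped, as did those of Itga9 and Itga5. Within each young sample, however, Itga1 was above Itga9, at 70.7, 74.6 and 106 against 59.9, 65.7 and 81.5 FPKM. Itga9 was above Itga5 only in young replicate 3. Next in the order of means were Itgb3 with 14.8 ± 10.9 FPKM and Itga6 with 13.7 ± 4.41 FPKM, again with overlapping ranges. Itgb3 was at 6.64, 10.6 and 27.2 FPKM in young replicates 1 to 3. In young replicate 1 it was below Itgb5, which was at 6.72 FPKM there. Itgb5, Itgav and Itgb4 had lower means, of 5.23 ± 1.30, 4.08 ± 1.39 and 2.82 ± 0.702 FPKM, and neighbors among them overlapped. Itga2 was lowest at 0.195 ± 0.0557 FPKM. The high-level alpha chains were thus a collagen receptor, the tenascin and osteopontin receptor and the fibronectin receptor, all partners of Itgb1.

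In aged ECs the order of means began with Itgb1 at 259 ± 30.4 FPKM, Itga5 at 67.0 ± 8.82 FPKM and Itga1 at 66.8 ± 10.1 FPKM. The ranges of Itga5 and Itga1 overlapped, and only in the 136-week sample was Itga5 above Itga1, at 77.1 against 59.5 FPKM. Itga9 came next, at 36.9 ± 6.10 FPKM, and its range no longer overlapped that of Itga1. Within every sample of both ages, Itga9 was below Itga1. Ranked among all genes of the FPKM table, Itga9 moved from place 1381 in the young mean to place 2426 in the aged mean, whereas Itgb1 moved from 324 to 336. Itga6 followed at 22.2 ± 9.03 FPKM, overlapping Itga9 and above Itgb3 at 10.9 ± 1.96 FPKM without overlap. Itgb5, Itgb4 and Itgav had means of 8.72, 6.59 and 5.39 FPKM with overlapping neighbors, and Itga2 remained lowest at 0.613 ± 0.785 FPKM.

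**Figure D1:**
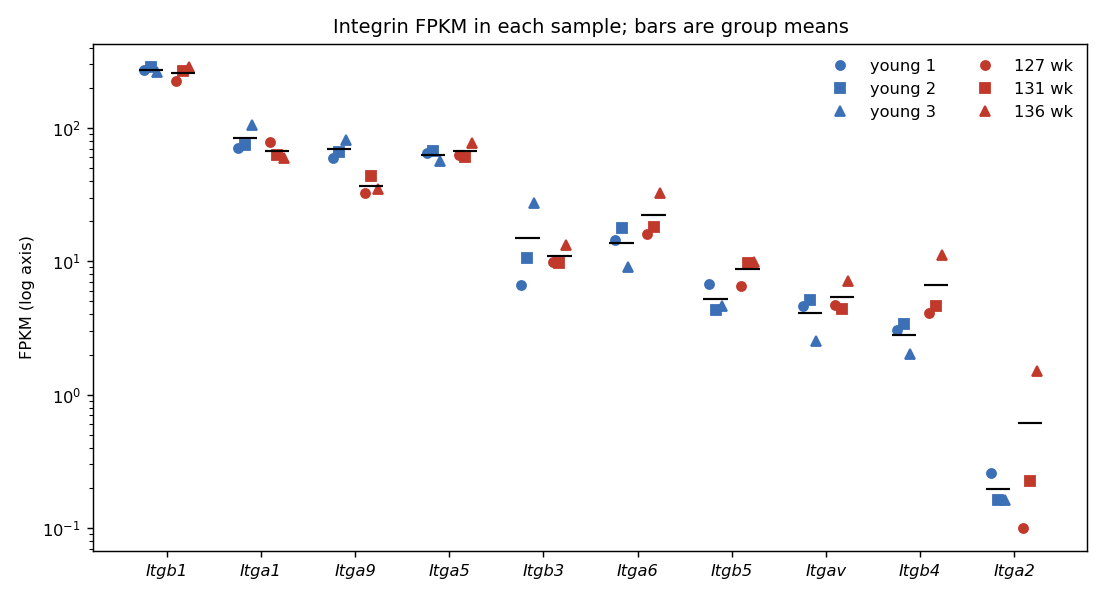
Length-normalized level of the 10 integrin genes in each sample (FPKM, log axis), with 1 point per sample, young ECs in blue, aged ECs in red and bars for the group means. Itgb1 was highest and Itga2 lowest at both ages, and the Itga9 points of the aged ECs lay below those of the young ECs.

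The comparison of aged with young ECs was tested on the counts with edgeR's quasi-likelihood test over 14612 genes, with p-values adjusted by Benjamini-Hochberg over all of them. None of the 10 integrin genes passed an adjusted p of 0.05, and neither did any other gene (0%). The smallest adjusted p was 0.0735. At an unadjusted p below 0.05, 1847 genes (12.6%) were called by edgeR, 8.32% higher and 4.32% lower in aged ECs, and among the integrins Itgb4 and Itgb5 were higher and Itga9 was lower. DESeq2 called 639 genes (4.37%) at an adjusted p below 0.05, 3.31% higher and 1.06% lower, and Itga9 was the only integrin of the 10 among them. The values of the young and aged samples did not overlap for 2 of the 10 genes, Itgb4 (higher) and Itga9 (lower), beside 17.9% of all genes, 9.62% higher and 8.33% lower. The median log2 fold change was 0.26 for the 10 genes and 0.01 for all genes tested. The non-overlapping share of the list was near that of all genes. The 2 genes called higher by edgeR at an unadjusted p below 0.05 depended on the samples: the number was 0 without young replicate 3, 4 without the 127-week sample, and 1 without either the 131- or the 136-week sample, whereas Itga9 was called lower without any of the 6 samples in turn. The shares of all genes at that p were taken only from the fit of all 6 samples.

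**Figure D2:**
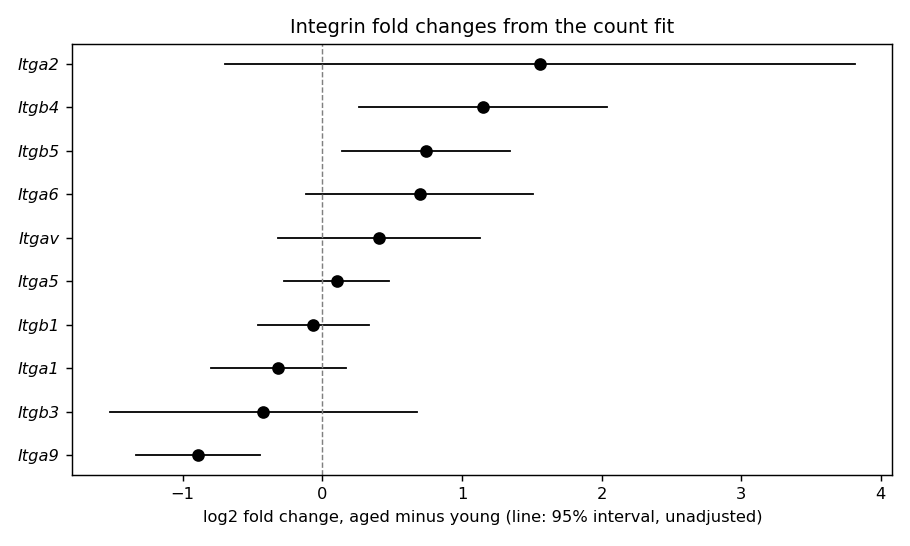
Log2 fold change of each integrin gene, aged minus young, from the count fit, with points for the estimate and lines for the unadjusted 95% interval. The intervals of Itga9, Itgb4 and Itgb5 lie to 1 side of 0, and those of the other 7 genes include 0.

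The difference in Itga9, the chain that makes the receptor for tenascin C and osteopontin and is also known for its part in lymphatic valve formation, had the smallest p of the 10. It was measured at 424, 464 and 565 CPM in young replicates 1 to 3, and at 227, 311 and 245 CPM in the 127-, 131- and 136-week samples. Every aged sample was below every young sample, and the 131-week sample lay nearest to the young ones. The means were 484 ± 72.8 and 261 ± 44.1 CPM, and the log2 fold change was -0.89 ± 0.19 (SE, 95% interval -1.34 to -0.45). The unadjusted p was 0.00195 and the edgeR adjusted p was 0.209, so the difference did not pass the test over all genes. The DESeq2 adjusted p was 0.00162, the lowest over 18 other settings, in which the adjusted p ranged up to 0.625 and the fold change stayed negative, from -1.04 to -0.68. The log2 ratio of aged to young was -0.68 within the 4 libraries with many Lars2 and Rn45s counts and -1.32 within the other pair.

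Itga9 lies at chr9:118515808-118810121 on the plus strand (mm9, GENCODE vM1). A lincRNA annotated on the opposite strand, Gm2415, overlaps its exons. Gm2415 has no row of its own in the count table, and since use of strand in the counting was not given, reads of the pair could not be told apart. The 250 bases upstream of its annotated start (chr9:118515558-118515807, plus strand, read from the mm9 genome) are shown because this gene had the smallest p, with the GC boxes in capitals:

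Itga9: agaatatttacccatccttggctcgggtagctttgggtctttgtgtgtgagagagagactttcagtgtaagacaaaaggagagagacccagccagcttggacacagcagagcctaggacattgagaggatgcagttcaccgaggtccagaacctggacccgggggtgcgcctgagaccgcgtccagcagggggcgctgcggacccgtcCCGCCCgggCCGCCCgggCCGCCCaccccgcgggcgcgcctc

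The window has a GC content of 64% and holds the GC box letters GGGCGG 3 times, each read on the minus strand and all within its last part. Neither a TATA box (TATAAA) nor AP-1 (TGANTCA) or ETS (CCGGAAG) letters were found on either strand. Among 32841 RefSeq promoter windows of the same length, 32.7% held a GC box, 12.4% a TATA box, 6.75% the AP-1 letters and 6.91% the ETS letters, so a GC box alone is common.

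The 5 genes whose profiles over the 6 samples were closest to that of Itga9 were Dpy19l4, Agpat5, 6530402F18Rik, Lrrc8c and Nostrin. Likeness was measured as the root mean square difference between centered log2(CPM + 1) values over 6 samples, among 12454 genes. It was 0.0685 for Dpy19l4 and 0.0928 for Nostrin, where the spread of Itga9 itself was 0.482. Such distances were not taken for genes other than Itga9, so whether these are unusually small was not tested. Nostrin, a regulator of endothelial nitric oxide synthase trafficking, was measured at 96.6, 113 and 120 CPM in young and at 57.4, 72.5 and 52.3 CPM in aged samples, in order of replicate and of age.

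Among the collagen receptors, Itga1 was measured at 426, 449 and 628 CPM in young replicates 1 to 3, and at 468, 378 and 360 CPM in the 127-, 131- and 136-week samples. The groups overlapped because the 127-week sample was above 2 of the young samples. The log2 fold change was -0.32 ± 0.21 (95% interval -0.80 to 0.17, edgeR adjusted p = 0.585). Itga2, better known from platelets and epithelia, had 29, 17 and 24 counts in young and 12, 24 and 157 counts in aged samples, or 1.08, 0.767 and 0.757 against 0.413, 0.933 and 6.37 CPM. A single library, the 136-week sample, set its fitted fold change of 1.56 ± 0.96 on the log2 scale (95% interval -0.70 to 3.82, edgeR adjusted p = 0.565). Without that sample the value was -0.37.

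Both collagen receptor genes lie side by side on chromosome 13, on the minus strand, with 26037 bases between them (Itga1 at chr13:115748287-115892172 and Itga2 at chr13:115626124-115722249, mm9). Despite this position their levels differed widely, with 83.7 FPKM for Itga1 and 0.195 FPKM for Itga2 in young ECs. Their promoter windows of 250 bases, from RefSeq (GRCm38.p6 table) and matched to mm9 at chr13:115892173-115892422 and chr13:115722309-115722558 on the minus strand, are shown as neighbors with unequal levels:

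Itga1: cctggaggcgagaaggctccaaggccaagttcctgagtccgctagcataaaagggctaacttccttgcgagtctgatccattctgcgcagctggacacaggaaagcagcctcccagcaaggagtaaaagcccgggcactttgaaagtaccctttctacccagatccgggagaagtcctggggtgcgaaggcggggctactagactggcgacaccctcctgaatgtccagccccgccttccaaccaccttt

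Itga2: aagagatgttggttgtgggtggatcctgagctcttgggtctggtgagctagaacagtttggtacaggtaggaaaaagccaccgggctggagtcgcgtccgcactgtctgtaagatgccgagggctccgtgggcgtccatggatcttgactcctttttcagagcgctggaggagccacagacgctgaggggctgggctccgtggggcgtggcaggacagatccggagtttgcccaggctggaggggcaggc

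Neither window held the letters of any of the 4 motifs on either strand, so no base is in capitals, and their GC contents were 57.6% and 60.8%. RefSeq promoter windows were matched for 7 of the 10 genes. That of Itga9 was replaced by the window above because the listed window begins 104752 bases inside the gene. The gene Pelo lies in an intron of Itga1 on the same strand and had 1793 counts over all samples.

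Among the laminin receptors, Itgb4, which anchors epithelial and some vascular cells to laminin and has a long cytoplasmic tail of its own kind, was measured at 19.3, 21.3 and 15.2 CPM in young replicates 1 to 3. The 127-, 131- and 136-week samples had 26.6, 28.9 and 68.6 CPM. The groups did not overlap, and the 136-week sample was far above the other aged samples. The means were 18.6 ± 3.08 and 41.4 ± 23.6 CPM, with a log2 fold change of 1.15 ± 0.38 (95% interval 0.27 to 2.04, unadjusted p = 0.0177, edgeR adjusted p = 0.317). Without the 136-week sample the log2 fold change was 0.58. Within the library sets it was 1.26 (4 libraries) and 0.81 (1 pair). Itgb4 lies at chr11:115836023-115869726 on the plus strand (mm9), where an antisense lincRNA, B230344G16Rik, overlaps its exons.

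Its partner Itga6, a general laminin receptor chain of endothelium and epithelium, was measured at 86.7, 107 and 52.7 CPM in young and at 95.03, 109 and 196 CPM in aged samples. The groups overlapped, with young replicate 3 lowest and the 136-week sample highest. The log2 fold change was 0.70 ± 0.35 (95% interval -0.11 to 1.51, edgeR adjusted p = 0.464). It was positive under all 18 other settings, from 0.31 to 0.93. Itga6 lies at chr2:71583673-71696473 on the plus strand.

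Itga5, which pairs with Itgb1 to bind fibronectin, was measured at 283, 293 and 243 CPM in young and at 276, 267 and 337 CPM in aged samples. The values overlapped, and the log2 fold change was 0.10 ± 0.16 (95% interval -0.27 to 0.48, edgeR adjusted p = 0.857). Itgb1 itself was measured at 1127, 1178 and 1057 CPM in young and at 925, 1101 and 1188 CPM in aged samples. Its log2 fold change was -0.06 ± 0.17, with a 95% interval of -0.46 to 0.33 and an edgeR adjusted p of 0.930. The intervals of these 2 genes were the narrowest of the 10 and, on the log2 scale, did not reach 0.5 in either direction. Itga5 lies at chr15:103174720-103197194 on the minus strand and Itgb1 at chr8:131209554-131257100 on the plus strand.

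Itgav, the alpha chain of the vitronectin receptors, was measured at 33.2, 37.3 and 18.1 CPM in young and at 34.7, 31.5 and 51.3 CPM in aged samples. The groups overlapped, and the log2 fold change was 0.41 ± 0.31 (95% interval -0.31 to 1.13, edgeR adjusted p = 0.648). Its partner Itgb5 was measured at 21.6, 13.8 and 14.5 CPM in young and at 20.7, 31.1 and 31.6 CPM in aged samples. The 127-week sample lay below young replicate 1, so the groups overlapped. The log2 fold change of Itgb5 was 0.74 ± 0.26 (95% interval 0.14 to 1.34, unadjusted p = 0.0216, edgeR adjusted p = 0.332). It was positive under all 18 other settings, from 0.63 to 0.98, and was 0.83 within the 4 libraries with many Lars2 and Rn45s counts and 0.52 within the other pair. Itgav lies at chr2:83564554-83647073, with the antisense lincRNA Gm13684 over its exons, and Itgb5 at chr16:33829751-33949239, both on the plus strand.

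Itgb3, the other partner of Itgav and also a platelet integrin chain with Itga2b, was measured at 38.4, 61.3 and 155 CPM in young and at 57.2, 55.9 and 76.6 CPM in aged samples. Young replicate 3 was highest and young replicate 1 lowest, and the 3 aged values lay between them. The log2 fold change was -0.42 ± 0.47 (95% interval -1.52 to 0.68, edgeR adjusted p = 0.775), and its sign rested on young replicate 3, without which it was 0.34. It was 0.41 within the 4 libraries with many Lars2 and Rn45s counts and -1.43 within the other pair. The 7 platelet genes summed to 20.3 CPM in young replicate 3, between the 23.2 and 16.3 CPM of the other young samples, and Itga2b was at 14.0 CPM there against 10.9 and 12.8 CPM. The part of platelets in the Itgb3 values was not tested. Itgb3 lies at chr11:104469370-104531790 on the plus strand.

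The samples also differed in how many of the 10 genes they led. The 136-week sample had the highest CPM of all 6 samples for 7 of the 10 genes, and young replicate 3 for the other 3, Itga1, Itga9 and Itgb3. Young replicate 3 was lowest for 4 genes and the 127-week sample for 3. The same count was not made over all genes, so whether this pattern is particular to the integrins was not tested.

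The relative make-up of the integrins within a sample was compared on the FPKM scale in 9 measures. With 3 samples against 3, the two-sided exact permutation test cannot give a p below 0.1, so none could pass 0.05. Itga9 made up 27.9%, 28.4% and 31.9% of the summed level of the 6 alpha chains in young replicates 1 to 3. Its share was 16.7%, 23.1% and 16.3% in the 127-, 131- and 136-week samples. The groups did not overlap, and the means differed by -10.7 percentage points (exact permutation p = 0.1, adjusted over the 9 measures 0.18). Itga5 took 27.2% ± 4.47 in young and 33.6% ± 2.38 in aged ECs, and Itga6 took 5.98% ± 2.18 and 11.0% ± 3.79, both without overlap and with the same p-values. The Itgav share was 1.78% ± 0.697 and 2.69% ± 0.564, also without overlap. The Itga1 share was 35.6% ± 5.14 and 33.7% ± 6.16 with overlap (exact permutation p = 0.7), and its difference changed sign, to 1.15 or 1.05 percentage points, without young replicate 3 or the 136-week sample. Itga2 stayed below 1% of the sum in every sample. The shares of a sample sum to 100%, so they do not move independently.

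**Figure D3:**
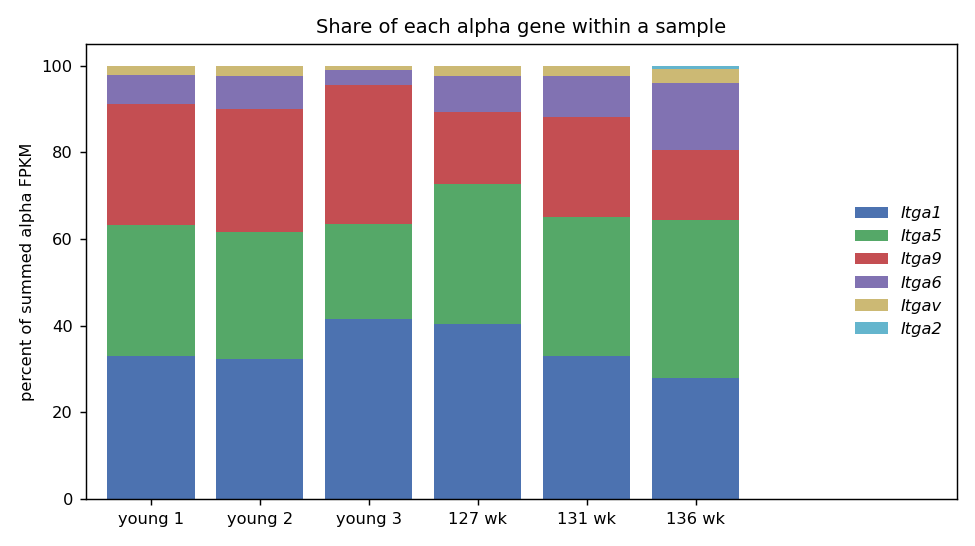
Share of each of the 6 alpha chains in their summed FPKM (percent), with 1 bar per sample. The Itga9 part was 27.9% to 31.9% in the young samples and 16.3% to 23.1% in the aged samples.

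Among the beta chains, Itgb1 made up 88.5% to 94.3% of the summed FPKM in young and 89.3% to 91.7% in aged samples. Itgb4 was 1.02% ± 0.216 of Itgb1 and Itgb4 together in young ECs and 2.41% ± 1.15 in aged ECs, without overlap (exact permutation p = 0.1). Itgb3 was 68.7% ± 18.0 of Itgb3 and Itgb5 together in young ECs and 55.7% ± 5.37 in aged ECs, with overlap (exact permutation p = 0.4). The summed alpha level over the summed beta level was 0.791 ± 0.0663 in young and 0.703 ± 0.0739 in aged ECs (exact permutation p = 0.3).

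The cells in the sort also differed in their marker genes, and the bulk data cannot tell fewer cells of a type from less RNA per cell. The 9 sinusoidal EC genes summed to 22096 to 22756 CPM in young samples and to 9209, 15467 and 6993 CPM in the 127-, 131- and 136-week samples, and 7 of the 9 were lower in aged ECs at an unadjusted edgeR p below 0.05. Over all genes, 8.32% were higher and 4.32% lower at that p. Stab2, a scavenger receptor of sinusoidal ECs, was at 2901 to 3198 CPM in young and 504 to 1759 CPM in aged samples. Itga9 was lower in the same samples as Stab2, and the 131-week sample was the nearest to the young samples for both genes. Of the 9 sinusoidal genes, 8 had a negative fold change and 1, Lyve1, a positive one (log2 fold change 0.58). Lyve1 was at 391, 537 and 670 CPM in young replicates 1 to 3. It was at 660, 223 and 1506 CPM in the 127-, 131- and 136-week samples. The 10 pan-endothelial genes summed to 14159 to 14779 CPM in young and 10265 to 13087 CPM in aged samples, with 1 of 10 lower at that p. The 10 large-vessel EC genes summed to 5853 to 8306 CPM and 6913 to 8098 CPM, with 1 of 10 higher. The part of these markers in the Itga9 result was not tested.

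The 8 cholangiocyte genes, of which 7 were tested and 3 were higher, summed to 8.74 to 25.9 CPM in young and 26.7 to 38.3 CPM in aged samples. These epithelial cells are known to express Itga6 and Itgb4, and Krt19, their keratin, was at 1.89 to 14.5 CPM in young and 10.5 to 13.6 CPM in aged samples. Ptprc was at 1.17 to 1.70 CPM in young samples and at 7.56, 1.28 and 25.6 CPM in the 127-, 131- and 136-week samples. The 8 pan-leukocyte genes summed to 99.2 to 106 CPM in young and 101 to 357 CPM in aged samples, with 5 of 8 higher. Most of the young sums was 1 gene, Lcp1, at 79.3 to 86.9 CPM. Lcp1 was at 59.6, 83.7 and 156 CPM in the 127-, 131- and 136-week samples. The 11 T and NK cell genes summed to 8.37 to 12.2 and 10.3 to 60.5 CPM, with 6 of the 10 tested higher. The share of all genes that were higher at the same unadjusted p below 0.05 was 8.32%. Ncr1 did not pass the filter on low counts. In the 131-week sample, where Ptprc lay within the young range, Itga9 was 311 CPM against a young minimum of 424 CPM, and Itgb4 and Itgb5 were 28.9 and 31.1 CPM against young maxima of 21.3 and 21.6 CPM. The part of the leukocyte genes in the values of these 3 integrins, and of the cholangiocyte genes in those of Itgb4 and Itga6, was not tested.

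The 9 stellate cell genes summed to 128 to 391 CPM in young and 223 to 681 CPM in aged samples, with 1 of 9 lower. The 9 Kupffer cell genes summed to 81.2 to 98.0 and 16.7 to 192 CPM, and the 7 platelet genes to 16.3 to 23.2 and 13.4 to 22.0 CPM, with no gene called in either list. The 8 hepatocyte genes summed to 99.5 to 144 CPM in young and 59.2 to 82.9 CPM in aged samples, with 2 of the 7 tested lower, and the 5 neutrophil genes to 3.66 to 6.86 and 6.42 to 40.5 CPM, with 1 higher. Beside these counts of called genes, 8.32% of all genes were higher and 4.32% lower at the same unadjusted p below 0.05.

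**Figure D4:**
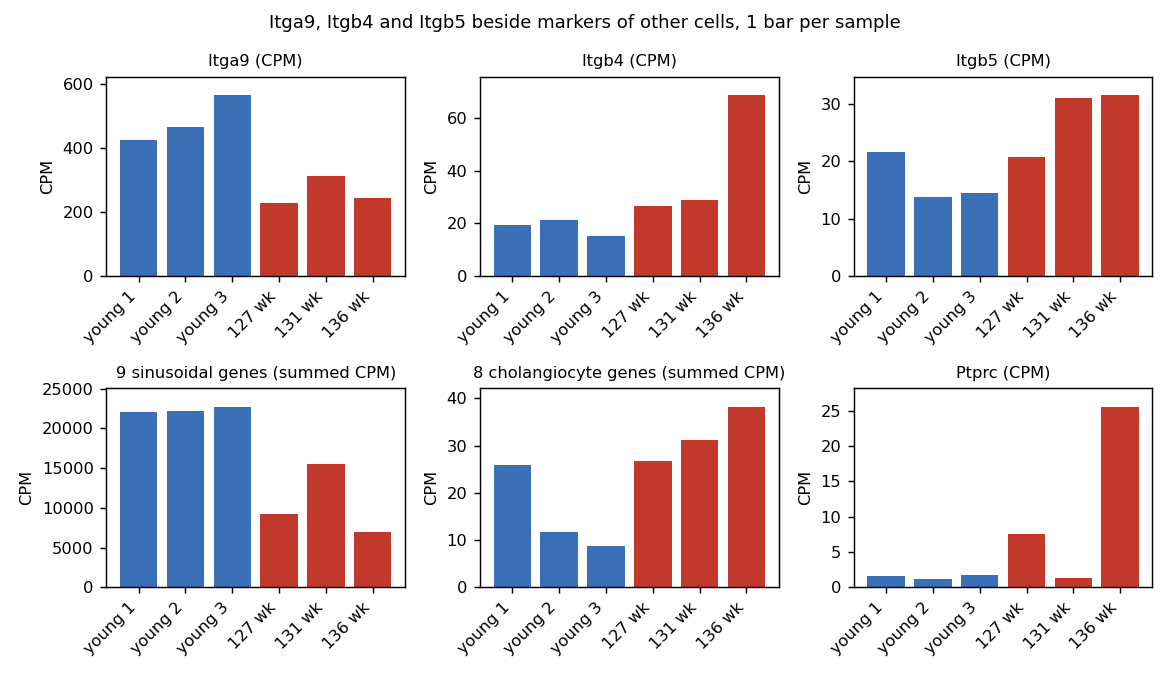
Itga9, Itgb4 and Itgb5 (CPM, upper row) beside the summed CPM of 9 sinusoidal EC genes and 8 cholangiocyte genes and the CPM of Ptprc (lower row), with 1 bar per sample. Itga9 and the sum of the sinusoidal genes were both lower in the 3 aged samples, and Ptprc was above the young samples in the 127- and 136-week samples and not in the 131-week sample.

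Of 17 other integrin genes, 15 were tested, and 4 were higher and 1 was lower at an unadjusted edgeR p below 0.05, beside 8.32% and 4.32% of all genes. None passed the adjusted p, and DESeq2 called 2, both higher, beside 3.31% of all genes. Itga3, a laminin receptor chain, was measured at 47.2, 45.9 and 54.9 CPM in young and 83.2, 64.2 and 80.1 CPM in aged samples, without overlap, with a log2 fold change of 0.62 ± 0.16 (edgeR adjusted p = 0.243, DESeq2 adjusted p = 0.0297). Itga8, a receptor chain for nephronectin, was the gene on the lower side, with 192, 255 and 243 CPM in young and 173, 105 and 156 CPM in aged samples (log2 fold change -0.67 ± 0.22, edgeR adjusted p = 0.317). The leukocyte integrin chains Itgal and Itgam had log2 fold changes of 2.26 ± 0.78 and 3.43 ± 1.22 (edgeR adjusted p = 0.332 and 0.339). Itgam was at 1.93, 0.311 and 9.46 CPM in the 127-, 131- and 136-week samples, the same order as Ptprc, and at 0.135 to 0.707 CPM in young samples.

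Of 39 genes of the adhesion machinery inside the cell, such as talins, kindlins and focal adhesion kinases, 4 were higher and 1 was lower at an unadjusted p below 0.05, near the shares of all genes (8.32% and 4.32%), and DESeq2 called 2, both higher (3.31% of all genes). The median log2 fold change of the 39 genes was -0.07. Kank1, which links talin to the cortical microtubule machinery, was at 63.7, 67.2 and 84.4 CPM in young and 154, 102 and 125 CPM in aged samples (log2 fold change 0.82 ± 0.20, edgeR adjusted p = 0.235, DESeq2 adjusted p = 0.0129). Ptk2b, a kinase related to focal adhesion kinase and abundant in leukocytes, was at 5.88, 5.64 and 2.43 CPM in young and 13.4, 8.13 and 22.9 CPM in aged samples (log2 fold change 1.68 ± 0.48, edgeR adjusted p = 0.258, DESeq2 adjusted p = 0.0222). Tns3, a tensin that binds integrin tails, was at 94.4, 94.5 and 70.1 CPM in young and at 32.7, 74.0 and 27.9 CPM in aged samples (log2 fold change -0.94 ± 0.37, edgeR adjusted p = 0.368), with 1 overlapping pair of values. Parvg, the parvin of blood cells, had a log2 fold change of 2.87 ± 1.07 (edgeR adjusted p = 0.353).

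The genes of the ligands were read in the same libraries. The list of Itga9 ligands held 5 genes, Tnc, Spp1, Emilin1, Svep1 and Npnt, the last of which is better known as a ligand of Itga8. Of these, 2 were higher and 1 was lower at an unadjusted p below 0.05 (8.32% and 4.32% of all genes), and DESeq2 called the 2 higher genes (3.31% of all genes). Spp1, which encodes osteopontin, was at 80.6, 77.4 and 96.2 CPM in young replicates 1 to 3 and at 170, 161 and 206 CPM in the 127-, 131- and 136-week samples. The groups did not overlap, and the log2 fold change was 1.08 ± 0.16 (edgeR adjusted p = 0.177). Svep1, a large adhesion protein that binds Itga9, was at 1.00, 0.451 and 0.820 CPM in young and 3.44, 2.99 and 3.21 CPM in aged samples (log2 fold change 2.07 ± 0.44, edgeR adjusted p = 0.209). Emilin1, an elastic fiber protein, went the other way, with 847, 757 and 632 CPM in young and 423, 601 and 224 CPM in aged samples (log2 fold change -0.84 ± 0.34, edgeR adjusted p = 0.378).

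A further list held 11 genes for fibronectin and other proteins listed as ligands of Itgav or Itga5 receptors, not all of which contain RGD. Of these 11, 6 were higher and none was lower at an unadjusted p below 0.05 (8.32% and 4.32% of all genes), and DESeq2 called 3 higher (3.31% of all genes). The values of the age groups did not overlap for 2 of the 11, both higher (9.62% of all genes). Cyr61, a matricellular protein, was at 720, 618 and 927 CPM in young and 1361, 1125 and 1552 CPM in aged samples, without overlap (log2 fold change 0.83 ± 0.22, edgeR adjusted p = 0.250). Ltbp1, which holds latent TGF-beta in the matrix, was at 41.7, 44.6 and 23.5 CPM in young and 64.2, 53.9 and 177 CPM in aged samples (log2 fold change 1.43 ± 0.48, edgeR adjusted p = 0.325). Postn, which encodes periostin, was at 10.9, 10.0 and 5.71 CPM in young and 27.2, 8.94 and 58.8 CPM in aged samples (log2 fold change 1.84 ± 0.62, edgeR adjusted p = 0.327).

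Among the laminin chain genes, Lamc3 was at 4.13, 3.61 and 1.42 CPM in young and 6.53, 8.94 and 9.42 CPM in aged samples (log2 fold change 1.44 ± 0.42, edgeR adjusted p = 0.267). The groups did not overlap. Lamb3, a chain of an epithelial laminin, was at or below 0.447 CPM in 5 of the 6 samples and at 3.74 CPM in the 136-week sample. Of 14 collagen chain genes, none was called in either direction at an unadjusted p below 0.05 or by DESeq2, and their median log2 fold change was -0.19.

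**Figure D5:**
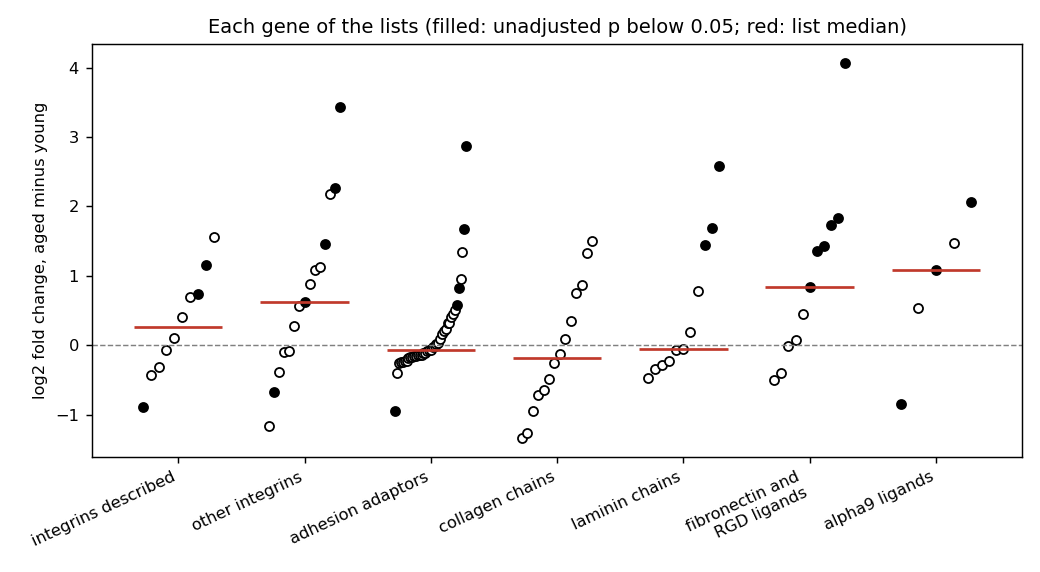
Log2 fold change, aged minus young, of every tested gene of the integrin, adhesion machinery and ligand lists, with 1 point per gene, filled at an unadjusted edgeR p below 0.05, and red bars for the list medians. The list labeled fibronectin and RGD ligands, not all of which contain RGD, and the Itga9 ligand list had medians of 0.83 and 1.08. The collagen list had a median of -0.19.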

How the data were processed

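RNA-seq was measured in 3 young and 3 aged liver EC samples of 50000 sorted cells, as 75-base single-end reads. Per the methods and the submitters' processing notes, the authors used CASAVA 1.8.2, aligned with TopHat 2.1.0 to mm9 and made FPKM values with Cuffnorm 2.2.1. The deposited count table holds whole read counts per gene, and the counting program, annotation and use of strand were not given in the sources used here. Genes that reached 0.5 CPM in 1 or more samples (14612 of 24421) were scaled with TMM factors and fitted with edgeR 4.0.16 (quasi-likelihood, age as the only term), which was tested on simulated data first. DESeq2 1.42.0 and limma 3.58.1 (R 4.3.3) were alternatives, as were other scaling factors and filters, a term for the library set and leaving out samples. Shares were compared with exact permutation tests in scipy 1.17.1. The p-values of the count fits weigh the difference between the ages against the spread between samples, estimated with information from other genes. Besides the 10 genes, up to 3 genes per list and direction with the smallest unadjusted p below 0.05 were named, with defining markers and the 5 profiles nearest to Itga9. The members and lists were chosen with earlier results of these data known. Listed genes that the table has under another symbol, or does not list, were not used here. Gene positions are from GENCODE vM1 on mm9. Some results of the ligand lists are not reported here.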

Additional observations from a re-analysis of the deposited data

How the results depend on the processing

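The fold changes of Itga1, Itga6, Itga9, Itgav, Itgb4 and Itgb5 kept their sign under all 18 tested alternatives. With DESeq2, 484 genes were higher and 155 lower at an adjusted p below 0.05, with limma-voom and sample quality weights 13 and 2, without a filter on low counts 3 and 1, with a term for the library set 1 and 1, and with limma on log2(FPKM + 0.1) 1 higher. Leaving out 1 sample gave 0 to 1 higher. The number of the 10 integrin genes higher at an unadjusted p below 0.05 was 0 to 4 when 1 sample was left out: 0 without young replicate 3, 4 without the 127-week sample and 1 without the 131- or 136-week sample. The share of all genes at that p was not taken for these alternatives. A term for the library set gave 3 higher, with Itga6 joining Itgb4 and Itgb5, and 2 lower, with Itga1 joining Itga9, and library totals alone also gave 3 higher, with Itga6. When 1 sample was left out, the log2 fold change ranged from -0.37 to 2.07 for Itga2 and from -0.0069 to 0.17 for Itga5, lowest without the 136-week sample, from -0.14 to 0.035 for Itgb1, highest without the 127-week sample, and from -0.77 to 0.34 for Itgb3, highest without young replicate 3. Itga2 was at -0.88 within the library pair with few Lars2 and Rn45s counts. Itgb3 turned to 0.20 with limma-voom, 0.41 within the 4 libraries with many such counts and 0.41 with the other pair left out, an alternative chosen after seeing the data. The Itga1 share difference ranged from -5.07 to 1.15 percentage points when 1 sample was left out, and that of Itga2 from -0.00035 to 0.331, and it was -0.0121 within the pair with few such counts. The cause of these turns was not tested. No paired analysis was possible because the aged samples carry no replicate numbers, so the groups share none. With 3 samples per group no exact test of a share could pass 0.05, and Itga2 rests on 12 to 157 counts per sample.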
